A study of Rattus norvegicus with 6 samples.

Results

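The genes described here mark osteochondrogenic switching and calcification of vascular smooth muscle: the ligands Bmp4 and Bmp2, the receptor Bmpr2, the transcription factors Runx2, Msx2 and Sox9, and the enzymes Alpl and Enpp1. They were taken from the table by gene symbol, and all 8 are among the 22574 symbols of the deposited count table. Only 4 of the 8 had enough counts to be tested, Bmp4, Bmpr2, Runx2 and Enpp1, and 12591 genes were tested in all.

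RASMCs, primary smooth muscle cells grown from the aorta of rats, were sequenced as 6 bulk mRNA libraries to compare cells exposed to components of extracellular traps with unexposed cells. In 3 libraries the cells had received H3CIT (citrullinated histone H3) at 0.03 μM and dsDNA (double-stranded DNA) at 300 ng/ml, and the 3 control libraries came from cells given bovine serum albumin. The rats were male Sprague-Dawley animals aged 8 weeks, and the labels name no altered gene. For these libraries, neither the length of exposure nor whether the cells had been loaded with cholesterol is given in the sources used here. Wells plated from cells of 1 rat served as replicates, so p-values measure the spread between wells and libraries, not between animals. The library totals were 17997198, 17573905 and 18009324 counts with H3CIT+dsDNA, against 18031326, 18742395 and 18594365 counts for controls. Levels are given as raw counts or as CPM, library-size-scaled counts from edgeR after TMM scaling, and neither is corrected for gene length.

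Bone morphogenetic proteins (BMPs) are secreted ligands that bring type I and type II serine/threonine kinase receptors together, after which SMAD proteins enter the nucleus and switch on genes such as the Id family. In the artery wall this signalling, together with RUNX2 and SOX9, is known for driving smooth muscle cells towards bone-like and cartilage-like states. Whether mineral forms then depends on the balance of phosphate and its inhibitor pyrophosphate, which ENPP1 makes and the phosphatase encoded by Alpl breaks down.

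Bmp4 and Bmpr2 were called, both higher after H3CIT+dsDNA, at an adjusted p under 0.05 in edgeR's quasi-likelihood test. That is 2 of the 4 members tested, beside 2.20% of all genes tested, 277 of 12591, and 1.94% for calls in the higher direction, 244 of 12591. The members were chosen with earlier results of these data known, so setting these shares side by side is no test. In 10 of the 15 alternatives 2 members were called, and in the others 1. The 277 calls became 164 when H3CIT+dsDNA replicate 1 was left out and 184 when control replicate 1 was. In 3 of the 4 tested members, Bmp4, Bmpr2 and Runx2, every H3CIT+dsDNA library lay above every control library in CPM, and over all genes tested the groups lay apart in 19.1%, in either direction.

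Bmp4, a ligand with osteogenic activity, had 56, 55 and 54 counts in the H3CIT+dsDNA libraries and 12, 11 and 14 counts in the control libraries. All 3 treated libraries were high, all 3 controls were low, and the groups were far from overlapping. Its level was 3.06 CPM with H3CIT+dsDNA (SD 0.0768, n = 3) against 0.673 CPM in controls (SD 0.0808, n = 3). Bmp4 rose 4.51-fold (95% interval 3.14 to 6.49), a log2 fold change of 2.17 with a standard error of 0.24 and an adjusted p of 9.42e-05 in edgeR. The gene was scarce in both groups, and in bulk libraries more cells making Bmp4 and more Bmp4 RNA per cell cannot be told apart. The treated counts are 3 consecutive whole numbers with an SD of 1 count, where counting alone would give an SD of about 7.42, and the control counts have an SD of 1.53 against 3.51. How the counts came to lie so close was not tested, and the interval and adjusted p, which use the spread between libraries, are in doubt to the extent that these counts are.

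Bmp2, the closely related ligand, had 0, 1 and 0 counts after H3CIT+dsDNA and 0, 0 and 0 counts in controls. It was close to absent in both groups, and no fold change is given. For the controls, which had no count, an upper limit of 3 counts over the group corresponds to 0.0542 CPM, counting error only. The H3CIT+dsDNA group held a count, so its limit lies above the 0.0560 CPM that 3 counts make there. The log2 ratio of Bmp2 to Bmp4 counts, with 0.5 added to each, was -6.82, -5.21 and -6.77 in the treated libraries and -4.64, -4.52 and -4.86 in the controls. The treated ratios were all lower, by 1.59 on average, with a two-sided exact permutation p of 0.1, the smallest that 3 libraries against 3 allow. In 5 of the 6 libraries Bmp2 was at 0, so there the ratio is set by the Bmp4 count and the added 0.5, and its order follows from the Bmp4 counts. It says nothing about a change of Bmp2. Treated replicate 2 held the single Bmp2 count.

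Of the 13 BMP ligand genes listed, 4 were tested, 1 rose (Bmp4) and 0 fell. Bmp7, the tested ligand with the most counts, had 386, 362 and 385 counts after H3CIT+dsDNA and 394, 402 and 376 counts in controls, with a log2 fold change of -0.02. The Bmp7 groups overlapped. The other tested ligand genes did not pass either. Of the 9 ligand genes under the filter on low counts, 2 had no count in any library and none exceeded 9 counts in a library.

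Bmpr2 encodes the type II receptor shared by BMP ligands. The H3CIT+dsDNA libraries held 1392, 1252 and 1324 Bmpr2 counts, against 916, 1183 and 1149 in controls. The groups did not overlap, and control replicate 1 lay well below the other controls. The mean level was 73.6 CPM with H3CIT+dsDNA (SD 2.92, n = 3) against 59.0 CPM in controls (SD 6.71, n = 3). The log2 fold change was 0.32 (95% interval 0.17 to 0.47, adjusted p = 0.0314 in edgeR, standard error 0.07), a fold of 1.25. The call was lost in several alternatives, among them fits with a library left out: adjusted p in edgeR was 0.194 without H3CIT+dsDNA replicate 1, 0.0586 without replicate 2, 0.106 without replicate 3 and 0.0639 without control replicate 1, and over all alternatives, other tools included, adjusted p ran from 0.00189 (DESeq2) to 0.194. Without control replicate 1 the log2 fold change was 0.23.

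All 10 receptor and co-receptor genes were tested, 1 rose (Bmpr2) and 0 fell, with a median log2 fold change of 0.12 beside 0.00 for all genes tested. Bmpr1a, a type I receptor and the one with the most counts, had 1452, 1337 and 1398 counts after H3CIT+dsDNA and 1166, 1395 and 1429 counts in controls. The groups overlapped, and the log2 fold change was 0.10 (adjusted p = 0.492 in edgeR, standard error 0.06). Acvr2a, an activin type II receptor named after its values were seen, had counts of 530, 533 and 529 against 450, 445 and 524, higher in all 3 treated libraries, with a log2 fold change of 0.19 and an adjusted p of 0.234 in edgeR.

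Downstream of the receptors, 0 of the 7 tested SMAD and SMURF genes were called by edgeR. Smad1, a signal carrier of BMP receptors, had the largest log2 fold change in size, 0.11, and Smurf1, a ubiquitin ligase that removes BMP SMADs, had the most counts and a log2 fold change of -0.03. Of the 12 antagonist genes, 8 were tested and 0 were called. Grem1, which encodes the BMP-binding antagonist gremlin, had 8952, 8348 and 8600 counts after H3CIT+dsDNA and 7978, 8301 and 8819 counts in controls. The groups overlapped, with a log2 fold change of 0.07 (adjusted p = 0.394 in edgeR, standard error 0.04). Chrdl1, a chordin-like antagonist, had the largest log2 fold change in size of that list, 0.27 with a standard error of 0.22.

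The early target genes of BMP signalling gave 0 calls among 5 tested of 10 listed, Smad6 and Smad7 being counted in this list and among the SMADs. Id1, an inhibitor of DNA binding that BMP receptors switch on directly, had 426, 420 and 403 counts after H3CIT+dsDNA and 413, 452 and 514 counts in controls. The groups overlapped, and the log2 fold change was -0.11 (95% interval -0.28 to 0.05, adjusted p = 0.559 in edgeR). Id3, its relative with the most counts of the list, had a log2 fold change of 0.00 (95% interval -0.19 to 0.18).

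Runx2 encodes the transcription factor that commits cells to the osteoblast lineage. It had 215, 218 and 213 counts after H3CIT+dsDNA and 186, 202 and 210 counts in controls. The treated libraries were all higher, by a narrow margin. Its mean level was 12.0 CPM with H3CIT+dsDNA (SD 0.338, n = 3) against 10.9 CPM in controls (SD 0.447, n = 3). The difference did not pass, at 0.14 on the log2 scale (95% interval -0.05 to 0.33, standard error 0.09, adjusted p = 0.518 in edgeR). The treated counts had an SD of 2.52 counts, where counting alone would give about 14.7. Runx2 overlaps Supt3h in the later annotation GRCr8, where Supt3h itself differed by -0.14 on the log2 scale (adjusted p = 0.501 in edgeR).

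Msx2, a homeobox factor induced by BMPs, had 0, 1 and 2 counts after H3CIT+dsDNA and 1, 0 and 0 counts in controls. Sox9, the master factor of cartilage, had 3, 8 and 1 counts against 6, 5 and 11 counts. Both genes had few counts, their groups overlapped, and neither was tested. Summed over the libraries, Sox9 had 12 counts after H3CIT+dsDNA and 22 in controls, a ratio of 0.564 per library size with a 95% counting interval of 0.254 to 1.19.

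Among 13 osteogenic transcription factor genes, 5 were tested and 0 were called. Runx1, a RUNX factor, had the most counts and a log2 fold change of 0.08. Cbfb, the partner subunit of RUNX proteins named after its values were seen, had 1481, 1452 and 1442 counts after H3CIT+dsDNA and 1301, 1412 and 1352 counts in controls. Its treated libraries were all higher, with a log2 fold change of 0.13 and an adjusted p of 0.145 in edgeR. Sp7, which encodes osterix, had 1, 1 and 1 counts against 0, 1 and 0 counts and was not tested.

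**Figure D1:**
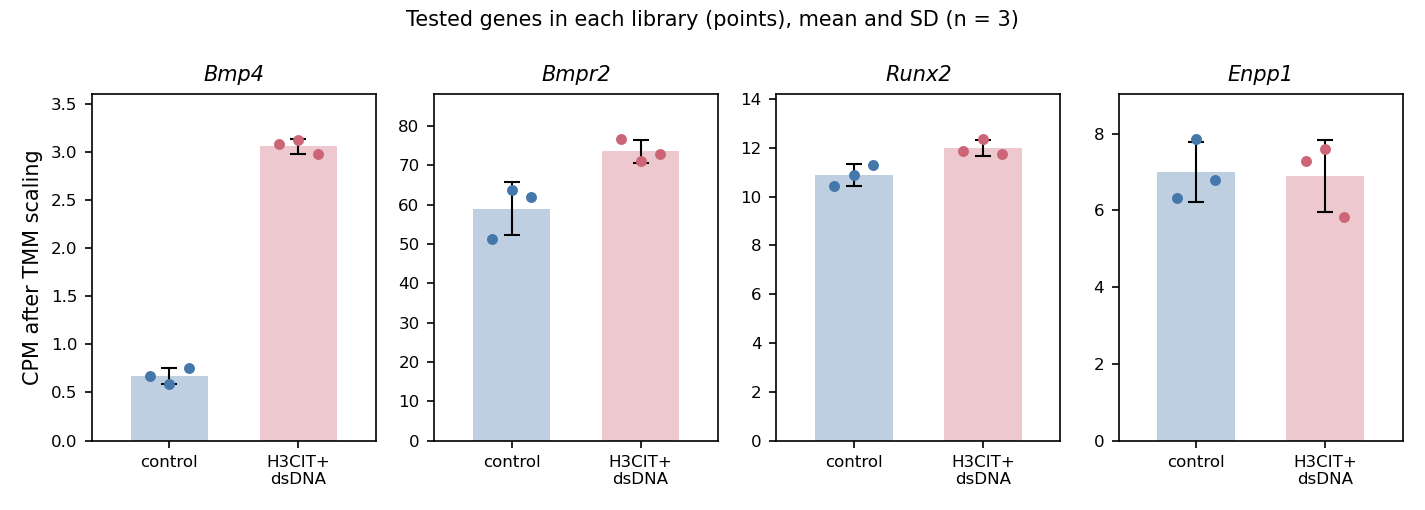
CPM after TMM scaling (vertical axes, starting at 0) of the 4 tested members in control and H3CIT+dsDNA libraries. Points are single libraries, bars are means and error bars are SD (n = 3). Bmp4 stands at 3.06 CPM against 0.673 CPM in controls, Bmpr2 and Runx2 lie higher by less, and the Enpp1 groups overlap.

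Among bone matrix and remodelling genes, 4 of 10 were tested and 0 were called. Spp1, the gene of osteopontin, had 14655, 13973 and 14586 counts after H3CIT+dsDNA and 14445, 13999 and 14275 counts in controls. The groups overlapped, and the log2 fold change was 0.04 (95% interval -0.03 to 0.12). Sparc, which encodes osteonectin, had the most counts of the list and a log2 fold change of -0.04. Dmp1, a phosphoprotein of osteocyte matrix, had 7, 13 and 14 counts against 5, 12 and 8 counts, with a log2 fold change of 0.47 and a standard error of 0.44.

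Cartilage genes mostly had too few counts to be tested, with 4 of 18 tested and 0 called. Col11a1, a fibrillar collagen chain, had the most counts and a log2 fold change of 0.11, and Comp, the cartilage oligomeric matrix protein gene, had a log2 fold change of 0.17 with a standard error of 0.27. Acan, which encodes aggrecan, had 2, 0 and 4 counts after H3CIT+dsDNA and 0, 0 and 1 counts in controls and was not tested, and its summed counts of 6 and 1 give a ratio of 6.20 with a 95% counting interval of 0.752 to 285.

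Alpl encodes the tissue-nonspecific alkaline phosphatase that breaks down pyrophosphate. It had 3, 3 and 4 counts after H3CIT+dsDNA and 6, 0 and 6 counts in controls. Its treated libraries lay inside the control range, it was not tested, and the summed counts of 10 and 12 give a ratio of 0.861 per library size with a 95% counting interval of 0.333 to 2.17. A change smaller than these limits was not detectable at this depth.

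Enpp1 encodes the enzyme that makes pyrophosphate from ATP. It had 132, 134 and 106 counts after H3CIT+dsDNA and 113, 146 and 126 counts in controls. The groups overlapped, at a mean of 6.91 CPM with H3CIT+dsDNA (SD 0.939, n = 3) and 7.00 CPM in controls (SD 0.789, n = 3). Enpp1 differed by -0.02 on the log2 scale (95% interval -0.33 to 0.29, standard error 0.14, adjusted p = 0.972 in edgeR). The log2 ratio of Alpl to Enpp1 counts, with 0.5 added to each, was -5.24, -5.26 and -4.56 in treated libraries against -4.13, -8.19 and -4.28 in controls. The low control is replicate 2, which had no Alpl count. The difference between the means was 0.51, with a two-sided exact permutation p of 1, and it was -0.82 without control replicate 2.

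Of the 11 genes of phosphate and pyrophosphate handling, 7 were tested and 0 were called. Slc20a1, a sodium-dependent phosphate importer, had the most counts and a log2 fold change of 0.01 (95% interval -0.08 to 0.10). Abcc6, a transporter needed for pyrophosphate release from liver, had the largest in size, -0.15 (standard error 0.10). Among 9 inhibitors of calcification, 6 were tested and 0 were called. Ggcx, the carboxylase that activates matrix Gla protein, had the largest log2 fold change in size, -0.06. Mgp, the gene of that protein, had 1, 6 and 6 counts after H3CIT+dsDNA and 0, 0 and 3 counts in controls and was not tested. The Mgp groups overlapped, and the summed counts of 13 and 3 give a ratio of 4.48 per library size with a 95% interval of 1.23 to 24.5, which covers counting error only and not the spread between libraries.

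Over the lists without the 8 members there were 99 genes, of which 52 were tested and 12 had no count in any library. None of the 52 was called by edgeR, by DESeq2 or by limma-voom, and 2 of them, Cbfb and Acvr2a, had an unadjusted p under 0.05 in edgeR, beside 13.9% of all genes tested. DESeq2 and limma-voom each had 2 genes at an unadjusted p under 0.05. Log2 fold changes of the 52 ran from -0.21 to 0.47, with a median of 0.03.

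**Figure D2:**
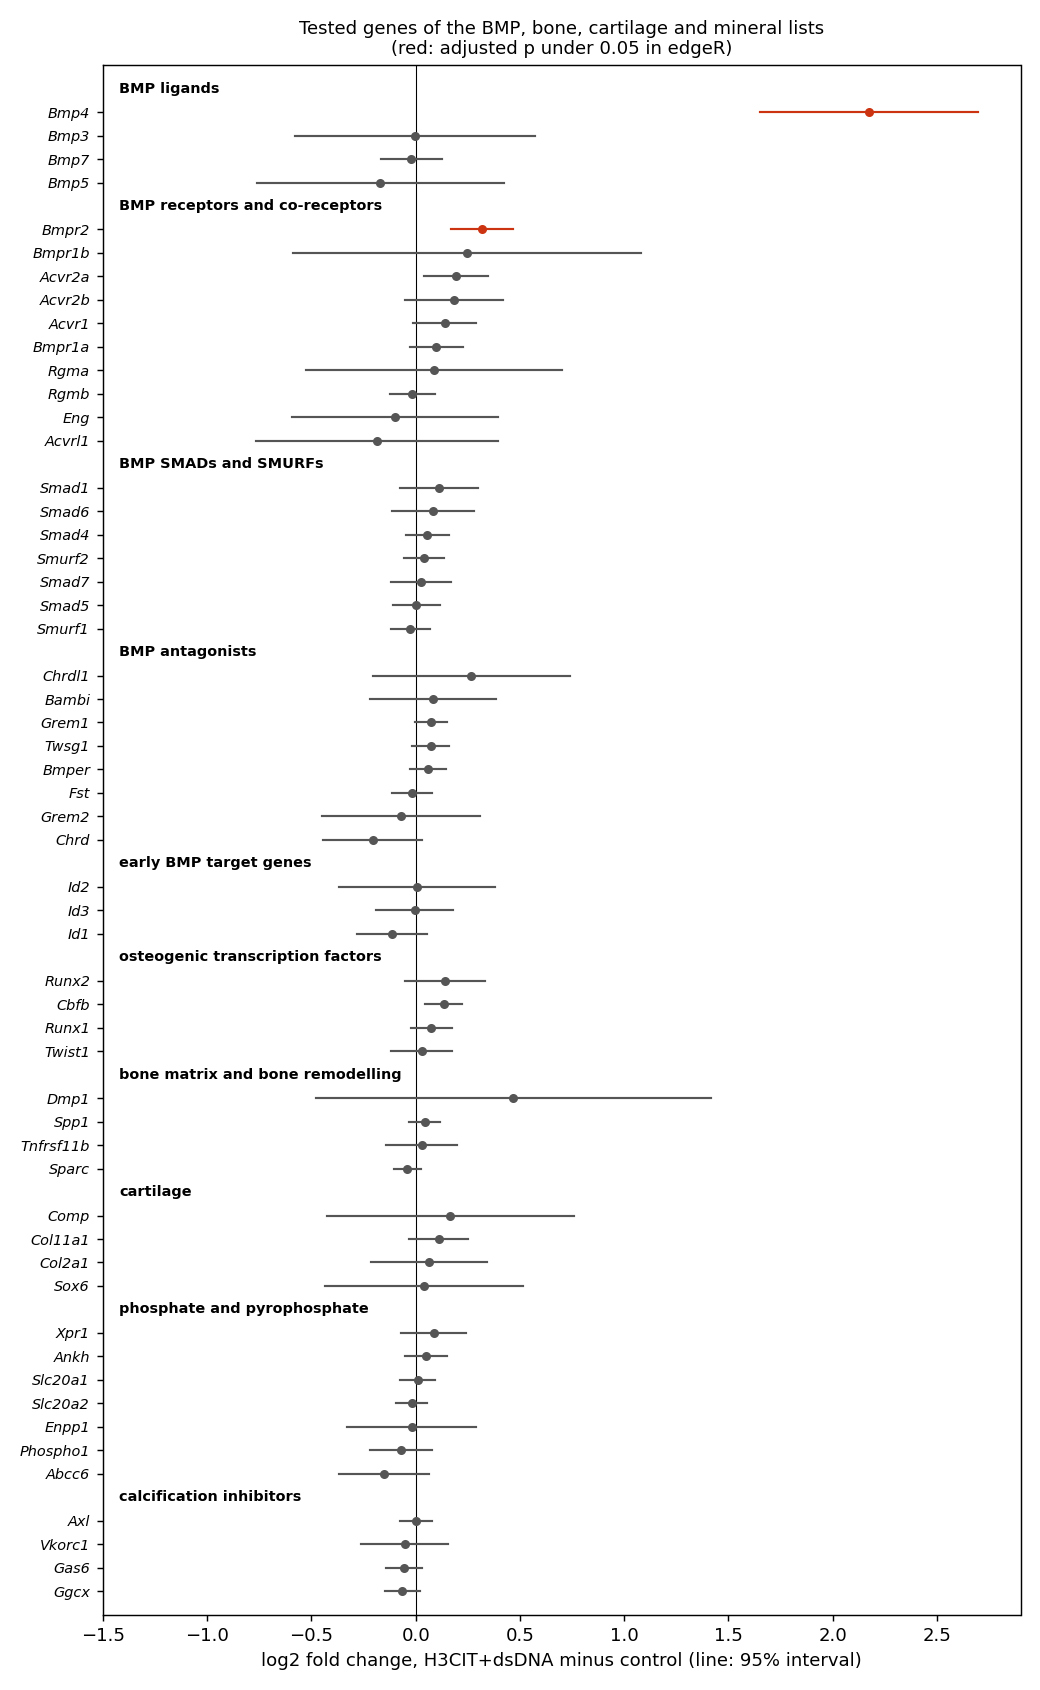
Log2 fold change, H3CIT+dsDNA minus control (horizontal axis), of 55 of the 56 tested genes of the lists, members included, with 95% intervals as lines and a gene of several lists drawn once. Bmp4 at 2.17 and Bmpr2 at 0.32, in red, are the genes with an adjusted p under 0.05 in edgeR, and the others lie between -0.21 and 0.47.

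Markers of other cell types were set beside these genes. The label smooth muscle was borne out by level, since smooth muscle markers summed to far more CPM than any other marker list. All 8 of 8 were tested, with Acta2 the most abundant (its reads may be shared with other actin genes). The summed level of the list was 5746, 6122 and 6303 CPM after H3CIT+dsDNA and 8953, 9225 and 8484 CPM in controls. The treated sums were all lower. Within the list 4 genes fell (Acta2, Tagln, Cnn1 and Smtn) and 1 rose (Myocd). The sum was lower in the group where Bmp4 and Bmpr2 were higher, and its part in their difference was not tested.

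The 6 osteoblast and osteocyte markers, each also held by a list above, summed to 2.43, 2.38 and 1.93 CPM after H3CIT+dsDNA and to 0.728, 1.24 and 0.970 CPM in controls. The treated sums were all higher, at low levels, with Sost at 0 in all libraries and 0 called of 1 tested. Dmp1 was the most abundant over all 6 libraries, at a mean of 0.632 CPM with H3CIT+dsDNA and 0.453 CPM in controls. Bglap, the osteocalcin gene, was not tested and is named after its values were seen: its mean was 0.744 CPM with H3CIT+dsDNA and 0.0539 CPM in controls, the larger difference of the pair. The part of this list in the Bmp4 difference was not tested. The 6 chondrocyte markers, led by Col2a1 and all in the cartilage list, summed to 7.39, 7.04 and 7.33 CPM against 6.05, 6.52 and 7.60 CPM, and the groups overlapped.

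Endothelial markers, of which 5 of 7 were tested and 0 called, summed to 60.1, 62.0 and 58.8 CPM after H3CIT+dsDNA and 61.9, 65.5 and 65.1 CPM in controls. Nos3 made up most of that sum, and Kdr had 1 count in all libraries together. Leukocyte and macrophage markers summed to 72.6, 72.2 and 74.5 CPM against 75.1, 76.5 and 73.4 CPM, mostly Cd14, with 0 called of 5 tested and Ptprc at 1 count in all. Fibroblast markers summed to 11.4, 13.3 and 12.3 CPM against 14.4, 11.3 and 14.5 CPM, mostly Dpep1, with 0 called of 3 tested and Cd34 at 0. These 3 sums overlapped between the groups.

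Promoter windows of the 2 called members are shown because both genes rose. RefSeq promoters of GRCr8, each from 250 bases before to 50 after a gene's start, matched 5 of the 8 members, not Enpp1, Bmp2 or Sox9, and GRCr8 is a later build than the Rnor6.0 used for the counts. Capitals mark matches, on either strand, to 6 motifs: the GC box GGGCGG, the E-box CACGTG, TTCNNNGAA of STAT factors, TGANTCA of AP-1, GGCGCC of SMAD complexes and TGTGGT of RUNX factors. Bmp4 lies on the minus strand and its window is chr15:22101884-22102183, and Bmpr2 lies on the plus strand with its window at chr9:68686566-68686865.
Bmp4: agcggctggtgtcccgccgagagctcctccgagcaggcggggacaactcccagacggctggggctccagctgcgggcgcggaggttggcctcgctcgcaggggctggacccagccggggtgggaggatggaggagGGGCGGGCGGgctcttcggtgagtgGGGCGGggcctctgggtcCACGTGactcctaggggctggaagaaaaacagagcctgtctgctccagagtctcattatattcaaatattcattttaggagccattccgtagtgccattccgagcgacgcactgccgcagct
Bmpr2: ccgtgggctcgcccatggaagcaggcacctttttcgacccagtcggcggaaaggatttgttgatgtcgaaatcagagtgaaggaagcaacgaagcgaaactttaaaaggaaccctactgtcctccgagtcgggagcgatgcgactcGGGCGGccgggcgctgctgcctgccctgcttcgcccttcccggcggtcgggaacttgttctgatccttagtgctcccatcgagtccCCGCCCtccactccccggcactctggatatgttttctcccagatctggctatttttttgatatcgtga
The Bmp4 window holds 3 GC boxes, the first 2 of which overlap, and 1 E-box, and the Bmpr2 window holds 2 GC boxes. Of 33469 promoters of this length, 33.1% hold a GC box and 6.42% the E-box. The other motifs, found in 8.87% (STAT), 7.33% (AP-1), 11.0% (SMAD) and 17.3% (RUNX) of promoters, have no match in either window.

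Among 9784 tested genes with at least 100 counts on average, Il18 and Kat5 were among those whose centred log2 CPM values over the 6 libraries lay nearest to Bmp4, at root mean square distances of 0.0972 and 0.102 log2 units. The Il18 counts, of an inflammasome cytokine, were 211, 222 and 233 against 54, 55 and 56, and those of Kat5, a histone acetyltransferase, were 916, 942 and 943 against 223, 221 and 220. Both genes were high in the treated libraries and low in the controls, like Bmp4. Snx13, Zbtb41 and Qtrt2 lay nearest to Bmpr2, at 0.0306, 0.0350 and 0.0377 log2 units. Snx13, a sorting nexin, had 576, 513 and 555 counts against 384, 466 and 477 counts, also lowest in control replicate 1.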

How the data were processed

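The RNA of 6 libraries, 3 H3CIT+dsDNA and 3 control, was grouped by the labels. The authors made stranded mRNA libraries, mapped reads to Rnor6.0 with TopHat2 2.1.1, counted reads per gene with HTSeq 0.6.0 and deposited whole-number counts, not normalized; the submitters' notes also name Cufflinks 2.2.1 and Cuffdiff. The strand setting of the counting is not given in the sources used here, so overlapping and antisense genes can share reads, and in GRCr8 a long non-coding RNA lies within Bmp4 and an uncharacterized protein-coding gene within Bmpr2. Library totals of 17573905 to 18742395 counts leave genes of a few counts with wide counting error.

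From the counts, filterByExpr, TMM scaling and the two-sided quasi-likelihood test of edgeR 4.0.16 (R 4.3.3) were applied to the whole table, with Benjamini-Hochberg adjustment over 12591 genes and calls at an adjusted p under 0.05. Named genes under the filter are given by their counts and, where a group sums to more than 3 counts, by the ratio of summed counts with a 95% interval for counting error only. The smallest chi-square per gene between replicate libraries, averaged over all tested genes, was 3.31, above counting noise. Single genes could lie below counting noise, as the treated Bmp4 and Runx2 counts did. Scripts were run on simulated counts in which 200 genes were changed by 1.5 on the log2 scale. There edgeR called 189 of them and 25 unchanged genes, DESeq2 188 and 15, and limma-voom 188 and 20. With each tool the false share of these calls was above the 5% that the threshold sets.

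Named genes were the 8 members, called genes of the lists, each list's tested gene with the most counts and with the largest log2 fold change in size, and Mgp, Spp1, Acan, Sp7 and Id1. Of these and of the genes nearest in pattern, 2 are not reported here. Defining markers of cell types and genes next to or overlapping a named gene are named beside it, and other genes picked once their values were known are marked so. Members and lists were chosen with earlier results of these data known. The 15 alternatives for each fit comprised 3 other scalings in edgeR (library size alone, upper quartile, DESeq2 size factors), 2 other tools (limma-voom of limma 3.58.1 and DESeq2 1.42.0), 2 other filters (none, or 10 counts in each library), robust dispersions, a replicate block, and leaving out each of the 6 libraries. The 2 count ratios were recomputed with 1 added in place of 0.5. Sequences and gene neighbours are from RefSeq, GRCr8.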

Additional observations from a re-analysis of the deposited data

How the results depend on the processing

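Bmp4 was called in all 15 alternatives (log2 fold change 2.09 to 2.26, adjusted p 1.98e-07 to 0.00144), and Runx2 and Enpp1 in none of them. Bmpr2 ranged from 0.23 to 0.34 with single libraries left out of the H3CIT+dsDNA group or control replicate 1 left out, and to 0.38 without another control library; the members called then ranged from 1 to 2. With a replicate block Bmpr2 had a log2 fold change of 0.32 and an adjusted p of 0.0820, leaving 1 member called and 212 genes called in all. Libraries share only a replicate number, since deviations of same-numbered libraries correlated across genes at -0.05, 0.00 and 0.04. Leaving out single libraries moved the genes called over all genes from 164 to 357. The list genes called without the members became 1 with no filter, and ranged from 0 to 1 with single libraries left out; that gene is Bglap. The Alpl to Enpp1 difference ranged from -0.82 to 1.21 with single libraries left out. Of 269 values of the 18 other named genes tested, 269 stayed on the same side of the threshold. The causes of these changes were not tested.

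Depth limits 4 of the 8 members. Without the filter, Sox9, Bmp2, Msx2 and Alpl did not pass either, with adjusted p in edgeR of 0.688, 0.752, 0.782 and 0.936.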

Other observations

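Some bone and cartilage genes under the filter had more counts after H3CIT+dsDNA, and the genes in this paragraph were chosen after their values were seen. Bglap, the gene of osteocalcin, had 16, 16 and 8 counts after H3CIT+dsDNA and 0, 0 and 3 counts in controls. All 3 treated libraries lay above the controls, and the summed counts of 40 and 3 give a ratio of 13.8 with a 95% counting interval of 4.39 to 69.6. Without the filter its log2 fold change was 3.61 (adjusted p = 0.0129 in edgeR), and over the 5 alternatives that tested it adjusted p ran from 0.00880 without control replicate 3 to 0.121 without control replicate 1. Where a library was left out it passed the filter only through the treated libraries, the group where it is high, so these values do not support a difference. Control replicate 3 held all 3 control counts, and without it the controls are at 0, so the fitted log2 fold change of 6.76 is no estimate of size. It was 3.07 without control replicate 2. Its neighbours in GRCr8, Pmf1 and Paqr6, had log2 fold changes of -0.01 and -0.04, neither passing.

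Col11a2, a collagen chain of cartilage, had 8, 6 and 7 counts after H3CIT+dsDNA and 1, 1 and 1 counts in controls. All 3 treated libraries were higher, at a summed 21 counts against 3, a ratio of 7.23 with a 95% counting interval of 2.16 to 37.9. Phex, an endopeptidase of bone, had 12, 7 and 3 counts against 2, 0 and 3 counts. The Phex groups met at 3 counts, and the ratio of summed counts was 4.55 (95% counting interval 1.68 to 15.4). Prg4, the gene of lubricin, had 20, 3 and 5 counts against 0, 0 and 8 counts, a ratio of 3.62 (95% counting interval 1.61 to 9.18), and its treated sum rests mostly on replicate 1. Without the filter, adjusted p in edgeR was 0.0873 for Col11a2, 0.280 for Phex and 0.470 for Prg4, so none of the 3 passed, and no other alternative tested them. Of the 17 list genes under the filter with at least 10 counts in all, 11 were higher per library size after H3CIT+dsDNA, or 64.7%, beside 51.2% of the 1982 such genes of the whole table.

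Bmp4 was among the genes whose counts in a group were 3 consecutive whole numbers, a property looked for after the counts had been seen. Among tested genes with a mean of 20 to 500 counts in the group, such runs occurred in 0.717% of 5855 genes after H3CIT+dsDNA and in 0.738% of 5823 genes in controls. Among the called genes of that range they occurred in 11 of 107, or 10.3%, and in 21 of 128, or 16.4%. A small spread between libraries both favours a call and is part of such a run. The comparison with called genes therefore cannot decide how the runs arose, which was not tested. Il18 had such a run in controls.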
